A study of Mus musculus with 1989 samples.

Results

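The 6 genes described here, Cd74, H2-Aa, H2-Ab1, H2-Eb1, H2-DMa and H2-DMb1, were chosen by name as genes of the MHC class II pathway, from 8846 genes in the single-cell RNA table of mouse thymocytes. They were read in all 1993 cells, and cells with high values were separated from the low background of the other cells. A cell was called MHC-II-high where the mean log2 value of the 6 genes was at least 1, which held for 35 cells. Every cell came from the thymus of male C57BL/6 mice aged 7 weeks with no genotype change or treatment named, ground to a suspension and filtered. For RNA, 1 library was made from unsorted thymocytes with the 10x 3′ kit. Single-cell ATAC-seq, which reads open chromatin, was used for 1084 unsorted cells (total thymocytes) and for cells sorted as double negative (DN, 182), double positive (DP, 125), CD4 (119) and CD8 (116). No animal was named for a cell, so each group counted as 1 sample and no test between groups was possible. All intervals are exact 95% intervals, and the limit that a count of 0 allows is 3 counts of the total. Both cover counting error only.

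MHC class II molecules are pairs of an alpha and a beta chain that hold peptides from proteins taken up by the cell and show them to CD4 T cells. H2-Aa and H2-Ab1 encode the alpha and beta chains of I-A, and H2-Eb1 encodes the beta chain of I-E, which C57BL/6 mice do not form for lack of its alpha chain. Cd74 encodes the invariant chain, which fills the groove of the new molecule and guides it to endosomes. H2-DMa and H2-DMb1 encode chains of H2-DM, which takes the last piece of the invariant chain out so that a peptide can bind. B cells, dendritic cells, macrophages and thymic epithelial cells express these genes together under the transactivator CIITA, which is held at the promoter by RFX proteins on the X box and NF-Y on the Y box. Thymocytes are selected on the class II molecules of these neighbouring cells, and mouse T cells are not a usual source of them.

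Of the 6 genes, 5 lie in the MHC region of chromosome 17, with coordinates here of build GRCm38 (patch GRCm38.p6). H2-DMa covers chr17:34119541-34139101, H2-DMb1 chr17:34153072-34160230, H2-Ab1 chr17:34257689-34269419 and H2-Eb1 chr17:34305867-34316674, all on the plus strand, and H2-Aa covers chr17:34282744-34287823 on the minus strand. Promoter sequences are shown because the X and Y boxes are the common input of the genes. RefSeq promoter windows, from 250 bases before to 50 bases after the start, matched 4 of the 6 genes and are printed for H2-Aa (chr17:34287774-34288073, minus strand), H2-Eb1 (chr17:34305617-34305916, plus strand) and H2-DMb1 (chr17:34152941-34153240, plus strand). A window of the same size around the downstream start of H2-DMa in the GENCODE annotation, where the ATAC signal described below lies, was read from the genome (chr17:34135378-34135677, plus strand). The capitals mark the letters CTNGNAAC of the X box and TGATTGG of the Y box, searched on both strands.
H2-Aa: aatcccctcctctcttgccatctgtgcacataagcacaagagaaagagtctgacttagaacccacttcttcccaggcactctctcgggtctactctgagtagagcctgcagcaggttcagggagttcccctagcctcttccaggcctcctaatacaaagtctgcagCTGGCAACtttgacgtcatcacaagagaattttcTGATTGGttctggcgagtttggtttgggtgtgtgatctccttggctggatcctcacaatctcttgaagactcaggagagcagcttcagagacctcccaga
H2-Eb1: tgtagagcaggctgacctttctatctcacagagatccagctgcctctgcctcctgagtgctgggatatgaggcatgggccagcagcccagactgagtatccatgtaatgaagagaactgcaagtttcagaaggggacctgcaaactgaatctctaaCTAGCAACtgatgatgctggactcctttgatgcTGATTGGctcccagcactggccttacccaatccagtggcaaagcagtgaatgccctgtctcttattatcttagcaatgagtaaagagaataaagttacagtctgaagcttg
H2-DMb1: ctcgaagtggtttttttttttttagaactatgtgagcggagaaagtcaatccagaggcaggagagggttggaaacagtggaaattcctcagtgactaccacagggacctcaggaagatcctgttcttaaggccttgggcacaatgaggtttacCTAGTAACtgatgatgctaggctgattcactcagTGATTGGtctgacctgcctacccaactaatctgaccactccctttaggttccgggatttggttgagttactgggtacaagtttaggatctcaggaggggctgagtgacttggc
H2-DMa: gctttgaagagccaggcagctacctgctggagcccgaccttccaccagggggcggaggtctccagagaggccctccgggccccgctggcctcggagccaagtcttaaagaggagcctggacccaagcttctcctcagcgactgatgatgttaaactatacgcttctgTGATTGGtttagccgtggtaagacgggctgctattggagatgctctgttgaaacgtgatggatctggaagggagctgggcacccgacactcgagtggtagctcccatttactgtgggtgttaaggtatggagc

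H2-Aa, H2-Eb1 and H2-DMb1 each held 1 X box and 1 Y box in the same order and on the strand of the gene. The X box letters were CTGGCAAC in H2-Aa, CTAGCAAC in H2-Eb1 and CTAGTAAC in H2-DMb1, and the Y box followed after 26, 25 and 26 bases. The X box began 84 bases before the start in H2-Aa, 94 in H2-Eb1 and 97 in H2-DMb1. The H2-DMa window held the Y box letters and not the X box letters, and 2 RefSeq windows at other starts of H2-DMa held neither. The letters tgatgatg, which follow the X box in H2-Eb1 and H2-DMb1, also precede the Y box letters in the H2-DMa window. Only CTNGNAAC was searched for, so an X box with other letters would be missed. Of 32851 RefSeq promoter windows, 13.2% held CTNGNAAC and 7.82% held TGATTGG, while 31 (0.0944%) held both in this order within 40 bases on 1 strand. These 31 windows belonged to 28 genes, among them H2-Ob and Rfx5. The motifs do not overlap each other, and a match of letters is a description and not a bound site.

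The unit of the RNA table is a log2 value that the authors had quantile-normalized, with 79.7% of values at 0. Detected genes per cell had a median of 1443 in the MHC-II-high cells (838 to 3607) and of 1484 in the others (830 to 5025), so depth differed little between them. Because a value above 0 is worth more in a shallow cell, each value was also turned into its rank among the distinct values of its cell, here called steps, as a stand-in for read counts. A step count understates the most abundant genes. Steps per cell had a median of 2558 and reached 22539, and each cell was thinned to 1300 steps for comparisons between cell types. Marker genes split the cells into 8 classes of the T lineage and innate-like lymphocytes and 1 antigen-presenting class (APC-like), in clusters built without the 6 genes or other class II pathway genes. Clusters with the proliferation gene Mki67 above 0 in at least 50% of cells could be named only ISP-like or DPbla-like (double-positive blasts), and 1 such cluster of 74 cells, named DPbla-like, scored higher for DPre (0.40) than for DPbla (0.036).

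A small set of cells stood apart from a broad, low background. The 35 MHC-II-high cells were 1.76% of the library (1.23% to 2.43%). Their mean over the 6 genes was 3.24 ± 0.95 (SD over 35 cells, log2) with a median of 3.53 and a maximum of 4.60, and in the 1958 other cells it was 0.12 ± 0.14 with a median of 0.077. The values that chose the cells are a description. Just inside the threshold lay cells at 1.44, 1.497 and 1.62, just outside it cells at 0.98, 0.97 and 0.97, and 97.5% of the other cells lay under 0.5. Between 0.5 and 1 lay 48 cells, of which 13 were DPre-like (resting double positive), 9 DPsel-like (double positive under selection), 9 CD4sp-like and 5 APC-like.

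**Figure D1:**
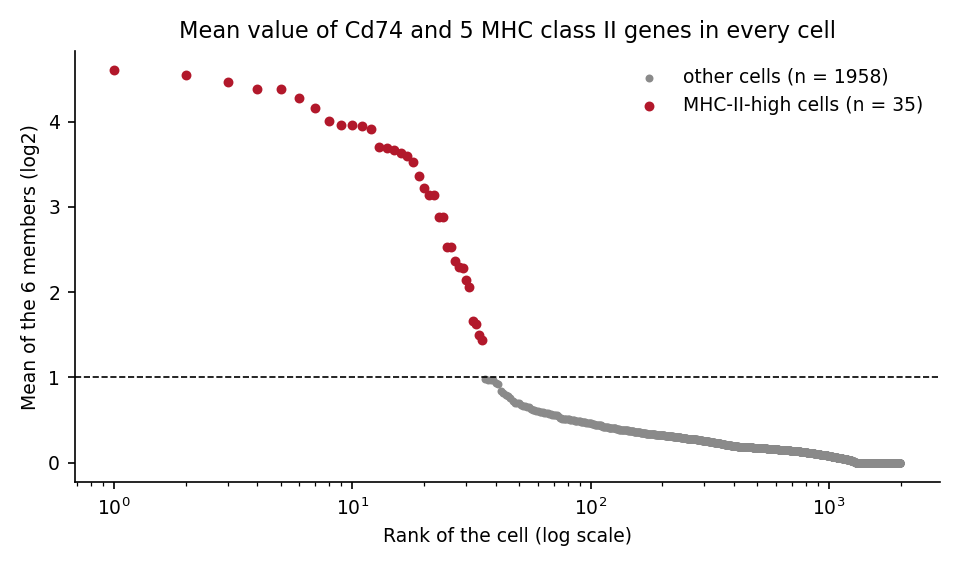
Mean log2 value of the 6 MHC class II genes in each of the 1993 cells, ranked from the highest, with the threshold at 1 drawn as a line. The 35 cells above the line reach up to 4.60, and 97.5% of the cells below it lie under 0.5.

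The number of the 6 genes above 0 in a cell uses the values that chose the cells and is a description too. Of the 35 MHC-II-high cells, 15 had all 6 genes above 0, 15 had 5, 4 had 4 and 1 had 3. Of the other cells, 693 had none, 682 had 1, 379 had 2, 161 had 3, 39 had 4 and 4 had 5, so 77 cells of the library had at least 4 genes above 0, of which 43 were not MHC-II-high. None of the 1958 had all 6, where the rule that chose them left little room for it. The 6 genes took a median of 60 steps in a MHC-II-high cell (10 to 299), or 2.52% of the steps of the cell (0.52% to 5.16%), and a median of 1 step in another cell (0 to 22).

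Cd74 was the most abundant of the genes. In the MHC-II-high cells its log2 value ran from 1.15 over a median of 5.82 to 7.14, all 35 cells were above 0, and the mean was 5.44 ± 1.18 (SD). In the other cells its mean was 0.19 ± 0.46 with 25.8% of cells above 0. The groups overlapped, since the highest of the other cells reached 4.94 and lay in the APC-like cluster. The genes for class II alpha and beta chains came next, here called surface chains. H2-Eb1 is counted among them by gene, although these mice do not form I-E. H2-Aa ran from 0 over a median of 4.60 to 5.59 with a mean of 4.03 ± 1.37, against 0.11 ± 0.30 in the other cells. H2-Eb1 ran from 0 over 4.26 to 5.42 with a mean of 3.93 ± 1.28, against 0.11 ± 0.29. H2-Ab1 ran from 0 over 3.91 to 5.42 with a mean of 3.66 ± 1.45, against 0.17 ± 0.36. Each of these 3 genes was above 0 in 34 of the 35 cells, and 1 and the same cell lacked all of them. The highest other cell stood at 2.37 for H2-Aa and H2-Eb1 and at 2.43 for H2-Ab1, so these distributions overlapped too, in their tails.

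The H2-DM chains were lower and less evenly detected. H2-DMa ran from 0 over a median of 1.64 to 3.17 in the MHC-II-high cells, with 28 of 35 cells above 0 and a mean of 1.53 ± 1.07, against 0.11 ± 0.30 in the other cells. H2-DMb1 ran from 0 over 0.41 to 3.32, with 19 of 35 cells above 0 and a mean of 0.86 ± 1.10, against 0.006 ± 0.07. H2-DMb1 was the rarest of the 6 in other cells, where 22 of the 1958 other cells (1.12%, 0.71% to 1.70%) had a value above 0. H2-DMb1 has a near-identical copy next to it, H2-DMb2, and how the counting divided reads between them is not given in the sources used here, so both levels are uncertain.

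**Figure D2:**
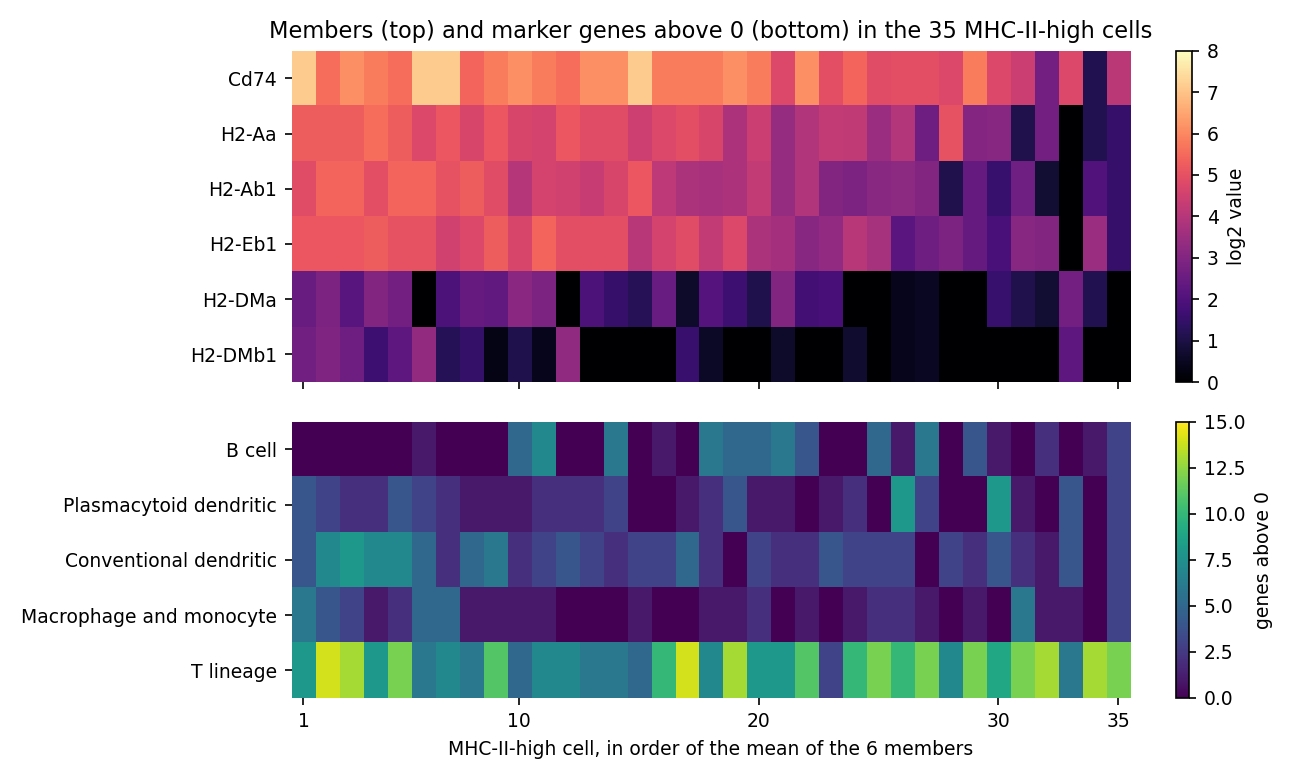
Log2 value of each of the 6 genes in each of the 35 MHC-II-high cells. Cd74 is above 0 in all 35 cells, H2-Aa, H2-Ab1 and H2-Eb1 in 34, H2-DMa in 28 and H2-DMb1 in 19.

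The difference of mean log2 values between MHC-II-high and other cells was 5.25 for Cd74, 3.92 for H2-Aa, 3.82 for H2-Eb1, 3.49 for H2-Ab1, 1.42 for H2-DMa and 0.85 for H2-DMb1. Over the 3793 genes above 0 in at least 20% of either group, 30 were higher by at least 1, a background of 0.791%, and 16 were lower by as much, 0.422%. Of the 6 genes, 5 were among the 30, which follows from the way the cells were chosen. When the cells for each gene were chosen by the other 5 genes alone, the differences were 5.15 for Cd74, 3.42 for H2-Aa, 3.63 for H2-Eb1, 3.21 for H2-Ab1, 1.25 for H2-DMa and 0.72 for H2-DMb1. These cells numbered 34 to 42, and the threshold stayed at 1.

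Within the MHC-II-high cells the 4 genes for Cd74 and the surface chains varied together. Their pairwise Pearson correlations over the 35 cells had a median of 0.74 (0.50 to 0.86), the highest between H2-Ab1 and H2-Eb1. Over all 15 pairs the median was 0.38 (0.21 to 0.86). In the 1958 other cells the same 15 correlations had a median of 0.02 (-0.03 to 0.11), and over all 1993 cells they had a median of 0.54 (0.34 to 0.78). Both groups were chosen by the mean of these genes, and a low mean leaves no room for joint high values. The points share 1 library and their depth, and no p was computed.

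The cell with the highest mean had Cd74 at 7.14, H2-Aa at 5.27, H2-Eb1 at 5.15, H2-Ab1 at 4.84, H2-DMb1 at 2.67 and H2-DMa at 2.52. It also had all 6 measured macrophage and monocyte genes above 0. The opposite make-up was seen in 1 cell that had Cd74 at 4.76, H2-DMa at 2.71 and H2-DMb1 at 2.27 with H2-Aa, H2-Ab1 and H2-Eb1 at 0. That cell had 5 of 7 myeloid genes and no B cell gene above 0. Both cells were singled out after their values were seen.

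Of the 35 MHC-II-high cells, 28 fell in the APC-like cluster of 33 cells. The other 7 were spread over the DPre-like (3), DPsel-like (2), ISP-like (immature single positive, 1) and CD4sp-like (1) classes. With clusters built from all variable genes, the members included, 31 fell in the APC-like class and 4 outside it, as 2 DPre-like, 1 DPsel-like and 1 CD4sp-like cell. In the 7 cells the mean over the 6 genes ran from 1.44 to 3.67, with 5 to 13 of 15 T lineage genes and 0 to 3 of 7 B cell genes above 0. They had 0 to 3 of 7 myeloid genes and 0 to 6 of 6 macrophage and monocyte genes above 0. All 6 of the latter were in 1 DPre-like cell, with 12 T lineage genes. Their detected genes ran from 838 to 3377. Doublets were not called, and whether these droplets held a thymocyte beside another cell was not tested. The MHC-II-high cells as a whole had a median of 9 of 15 T lineage genes above 0 (3 to 14), and the other cells had a median of 13.

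The 5 cells of the APC-like cluster under the threshold had high Cd74 and low surface chains, a make-up that the threshold on the mean favours. Their Cd74 values ran from 3.11 to 4.94, while H2-Aa was at 0 in all 5, H2-Ab1 was above 0 in 2 and H2-Eb1 was above 0 in 3. Of the 5, 3 had 4 or 5 of the 7 measured B cell genes above 0.

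The counts below overlap in some cells and leave out others. Markers of several antigen-presenting cell types were seen in the MHC-II-high cells. At least 4 of 7 B cell genes were above 0 in 11 of them and in 3 of the other cells. At least 5 of 10 conventional dendritic genes were above 0 in 8 of them and in 1 other cell. All 8 plasmacytoid dendritic genes were above 0 in 2 of them and in no other cell, and at least 5 of 6 macrophage and monocyte genes in 4 of them and in 3 other cells. At least 4 of 7 myeloid genes, such as Tyrobp and Spi1, were above 0 in 16 of them and in 4 other cells. At least 3 of 6 thymic epithelial genes were above 0 in none of them and in 16 other cells, and 0 of 35 cells allows a share of up to 8.57%.

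The cells with many B cell genes and those with many conventional dendritic genes differed most in H2-DMb1, but also in depth. Detected genes had a median of 1443 (1077 to 2014) in the 11 cells with at least 4 B cell genes and of 2263 (1539 to 3607) in the 8 cells with at least 5 conventional dendritic genes. Cd74 was 5.67 ± 0.55 in the 11 cells with at least 4 B cell genes and 5.92 ± 0.54 in the 8 cells with at least 5 conventional dendritic genes. H2-DMb1 was 0.29 ± 0.37 in the first and 2.02 ± 0.96 in the second. The surface chains were higher in the second, with H2-Aa at 3.95 ± 0.75 against 5.12 ± 0.31, H2-Ab1 at 3.72 ± 0.68 against 5.06 ± 0.56, and H2-Eb1 at 3.94 ± 0.97 against 5.07 ± 0.19. H2-DMa was 1.61 ± 1.14 in the first and 2.03 ± 1.11 in the second, within 1 SD. In the 17 cells with no B cell gene, H2-DMb1 was 1.35 ± 1.17 and Cd74 5.74 ± 0.82. The 2 cells with all 8 plasmacytoid genes had Cd74 at 4.76 and 4.94 and lower surface chains, with H2-Eb1 at 1.88 and 2.21 and H2-Ab1 at 1.54 and 3.20. After thinning, the surface chains had overlapping intervals per 10000 steps, with H2-Eb1 at 55.2 (43.7 to 68.9) and 56.7 (43.2 to 73.2), H2-Aa at 53.8 (42.5 to 67.3) and 70.2 (55.0 to 88.3), and H2-Ab1 at 41.3 (31.4 to 53.2) and 61.5 (47.4 to 78.6). H2-DMb1 was at 2.10 (0.43 to 6.13) and 10.6 (5.28 to 18.9), with overlapping intervals as well. Depth thus moved with the split, and its part in the unthinned differences was not tested. Since the splits were made within 1 library, cells are not replicates and the SDs describe cells only.

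As a share of the unthinned steps of the 6 genes, H2-DMb1 took 0.69% (0.23% to 1.61%) in the cells with at least 4 B cell genes and 4.58% (3.53% to 5.82%) in the cells with at least 5 conventional dendritic genes. Cd74 turned its order on this scale and took 37.3% (33.8% to 41.0%) in the former and 24.6% (22.4% to 27.0%) in the latter. H2-DMa took 4.16% (2.82% to 5.89%) and 4.58% (3.53% to 5.82%), with overlapping intervals.

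**Figure D3:**
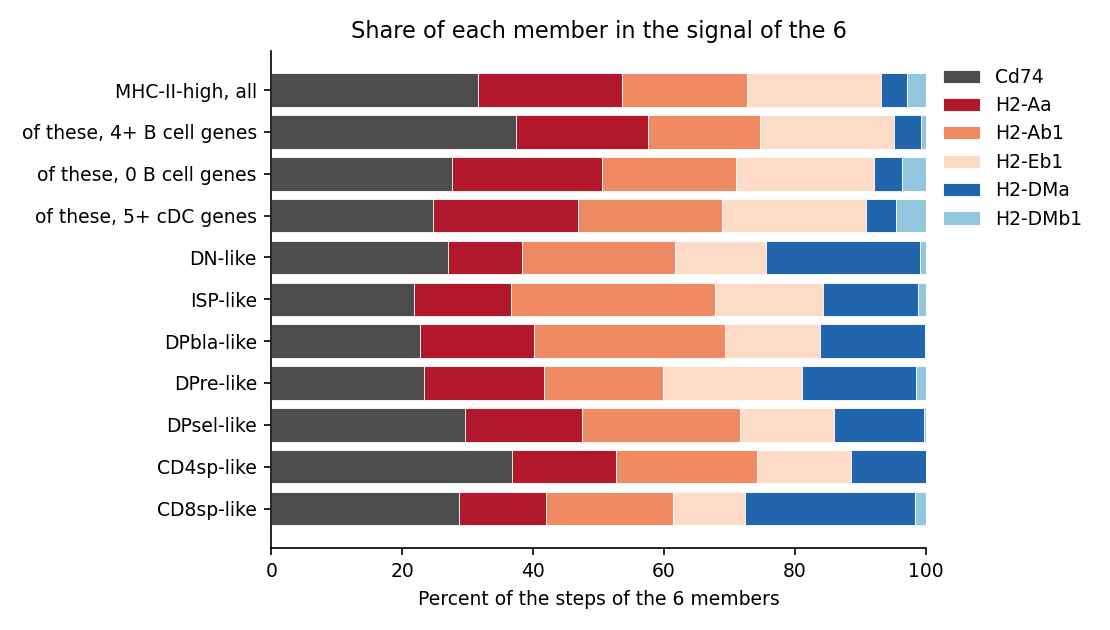
Share of each of the 6 genes in the steps of all 6, in MHC-II-high cells, in their splits by marker genes and in the classes of cells that were not high (the NCL-like, innate-like lymphocytes, and APC-like classes are left out). H2-DMa takes 4.01% in MHC-II-high cells and 15.7% in the other cells.

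The background in the other cells was low and differed in make-up from the MHC-II-high cells. In MHC-II-high cells H2-DMa took 4.01% of the steps of the 6 genes (3.33% to 4.77%), and in the other cells it took 15.7% (14.3% to 17.2%). H2-Ab1 took 19.1% (17.7% to 20.6%) and 25.3% (23.7% to 27.0%). Cd74, H2-Aa, H2-Eb1 and H2-DMb1 took smaller shares in the other cells, with Cd74 at 31.6% (30.0% to 33.3%) against 26.9% (25.2% to 28.6%) and H2-DMb1 at 2.87% (2.30% to 3.54%) against 0.85% (0.53% to 1.28%). Steps understate abundant genes, which bears most on Cd74 and the surface chains in the MHC-II-high cells. The share of H2-DMa in other cells was highest in the CD8sp-like cells, at 26.0% (19.7% to 33.0%), and in the DN-like cells, at 23.5% (16.1% to 32.3%).

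Shares of other cells with a value above 0 were 25.8% for Cd74, 17.7% for H2-Aa, 27.2% for H2-Ab1, 17.7% for H2-Eb1, 17.7% for H2-DMa and 1.12% for H2-DMb1. After thinning to 1300 steps they were 12.1%, 7.81%, 10.3%, 7.61%, 7.35% and 0.46%. Transcripts known mainly from other cells were set beside them as a scale, though no value here shows that they were free RNA. The immunoglobulin light chain gene Igkc was above 0 in 17.2% of the other cells, the macrophage genes Apoe in 41.7% and C1qa in 6.64%. The globin genes Hbb-bs and Hbb-bt were above 0 in 5.06% and 1.48%. H2-DMb1 lay below all of these, and the other 5 members lay above C1qa and the globin genes and below Apoe, with H2-Aa, H2-Eb1 and H2-DMa near Igkc and Cd74 and H2-Ab1 above it. Whether the low values come from free RNA or from the cells was not tested, and they are not read as expression by thymocytes.

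Over 10000 thinned steps, Cd74 took 85.5 (77.2 to 94.4) in MHC-II-high cells and 1.16 (1.03 to 1.303) in the others. H2-Aa took 56.5 and 0.63, H2-Eb1 51.9 and 0.61, H2-Ab1 44.6 and 0.85, H2-DMa 9.01 and 0.60, and H2-DMb1 4.84 and 0.035. Across the T lineage classes Cd74 was lowest in the ISP-like cells, at 0.68 (0.45 to 0.99), and highest in the CD4sp-like cells, at 1.60 (1.17 to 2.14), while the CD8sp-like cells had 1.40 (0.92 to 2.04) and the DPsel-like cells 1.32 (1.00 to 1.71). H2-DMa was lowest in the ISP-like cells, at 0.40 (0.23 to 0.65), with DPbla-like cells at 0.44 (0.28 to 0.66), or 0.31 (0.17 to 0.52) without the cluster that scored higher for DPre, and CD4sp-like cells at 0.53 (0.30 to 0.88). It was highest in the CD8sp-like cells, at 1.25 (0.80 to 1.86), followed by the DN-like cells at 1.08 (0.54 to 1.94). For both genes the intervals of the lowest and the highest class did not overlap, but these pairs were picked as extremes among the classes after the values were seen. The source of these differences between classes was not tested.

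For the surface chains no pair of classes stood apart by its intervals. H2-Ab1 ran from 0.75 (0.54 to 1.02) in DPbla-like to 1.04 (0.76 to 1.40) in DPsel-like cells, H2-Aa from 0.20 (0.02 to 0.71) in DN-like to 0.85 (0.55 to 1.27) in CD4sp-like cells, and H2-Eb1 from 0.20 (0.02 to 0.71) in DN-like to 0.82 (0.60 to 1.09) in DPre-like cells. Only 2 thinned steps stood behind each DN-like value of H2-Aa and H2-Eb1. H2-DMb1 had no value above 0 in the 216 CD4sp-like cells. Across the T lineage classes Apoe ran from 1.25 (0.80 to 1.86) in CD8sp-like to 2.28 (1.76 to 2.91) in CD4sp-like cells, Igkc from 0.33 (0.20 to 0.52) in DPbla-like to 0.60 (0.39 to 0.88) in DPsel-like cells, and C1qa from 0.099 (0.0025 to 0.549) in DN-like to 0.28 (0.12 to 0.56) in CD4sp-like cells. Hbb-bs is not read by class, since in DPsel-like cells its 20 thinned steps lay in 7 cells, 1 of them at a log2 value of 7.14.

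**Figure D4:**
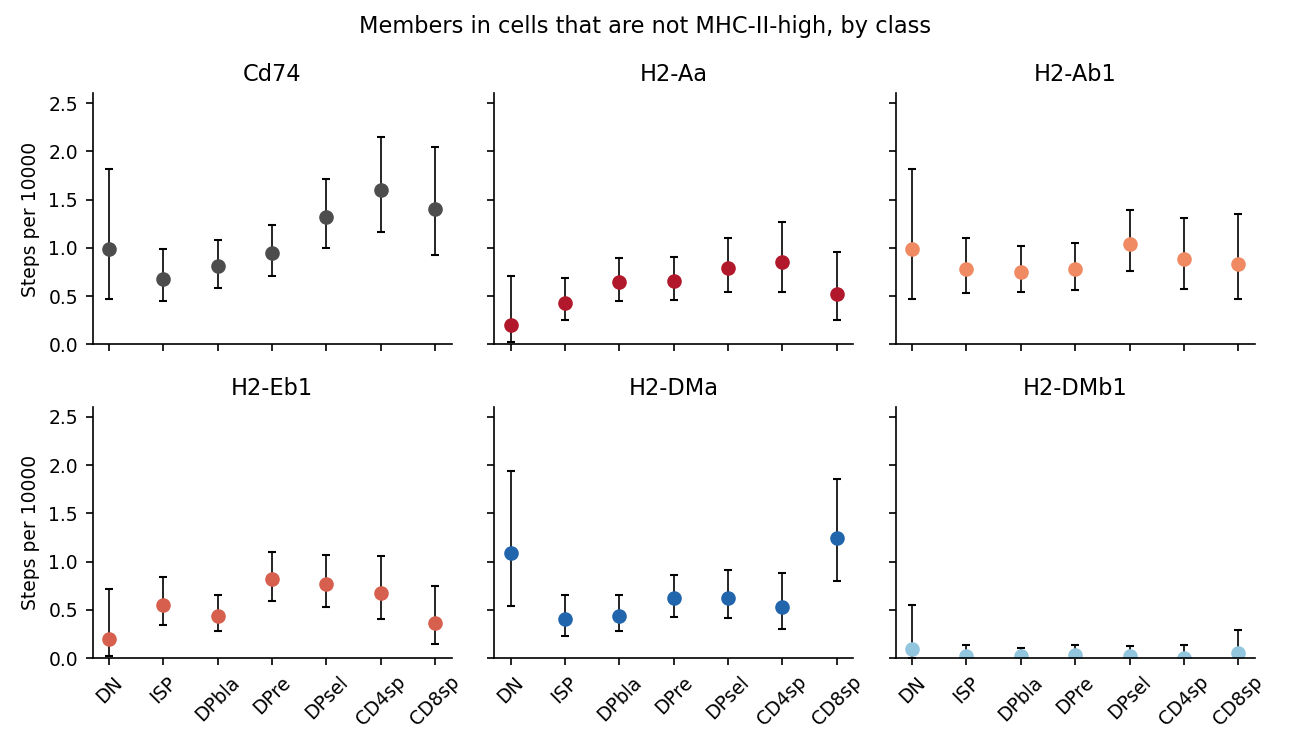
Thinned steps of each of the 6 genes per 10000 steps, by class of cells that were not MHC-II-high (NCL-like and APC-like are left out), with exact 95% Poisson intervals. H2-DMa lies between 0.40 in ISP-like and 1.25 in CD8sp-like cells, and Cd74 between 0.68 in ISP-like and 1.60 in CD4sp-like cells.

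The genes whose values over the 1993 cells were most like the mean of the 6 genes included genes of lysosomal enzymes and of myeloid cells. Cd74, H2-Eb1, H2-Aa and H2-Ab1 held ranks 1 to 4 of 8821 genes, with Pearson r of 0.89, 0.89, 0.88 and 0.85, since each is part of the mean. The first gene outside the 6 was Napsa, an aspartic protease, at 0.67, above 0 in 65.7% of MHC-II-high and 0.56% of other cells. H2-DMb1 had 0.64 and H2-DMa 0.60. The others of the first 10 outside the 6 were the lysosomal protease gene Ctsh at 0.64, the thiol reductase gene Ifi30 at 0.63, Ly86 at 0.62, H2-DMb2 at 0.62, Plbd1 at 0.61, the transcription factor genes Irf8 and Spi1 at 0.57, and Aif1 and the adaptor gene Tyrobp at 0.54. The next 10 were Dnase1l3, Ly6a, Wdfy4, Cxcl16, Rnase6, Ms4a6c, the B cell receptor gene Cd79a, Kctd14, Mpeg1 and Ppfia4, from 0.53 to 0.47. Most values are 0, and of the 20 genes 7 were again among the first 20 when the 35 cells were left out, where the highest r was 0.20, for the B cell gene Ms4a1.

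Among genes outside the 6, the largest differences in favour of MHC-II-high cells were Cst3 at 2.48, H2-D1 at 1.88, Ifi27l2a at 1.84, B2m at 1.83, Ly6a at 1.73, Tyrobp at 1.58, H2-K1 at 1.53, S100a11 at 1.48, Igkc at 1.45 and Cd52 at 1.41 (log2). The lowest were the T cell receptor genes Trbc2 at -1.92 and Trbc1 at -1.69, followed by Cd3g at -1.67, the histone gene Hist1h2ap at -1.63, the chromatin organizer gene Satb1 at -1.40, Cd3d at -1.40, Lat at -1.28, Lck at -1.27, Cd3e at -1.25 and Stmn1 at -1.21. Of 15 T lineage genes, 8 were lower by at least 1, beside 0.422% of all genes compared. The median difference over the 15 was -1.08, beside -0.016 over all genes compared. Trbc2, although lower, was above 0 in 100% of the MHC-II-high cells and in 82.9% after thinning.

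The rest of the class II pathway was described with a list of 23 genes, of which 20 were measured and 13 passed the filter on low values, some of them only through the MHC-II-high cells. The list was therefore described with no filter. Of the 20 genes, 4 were higher by at least 1 and 0 were lower, beside 0.339% higher and 0.181% lower of all 8846 genes. The median difference over the 20 was 0.19, beside -0.010 over all genes. The 4 were the cathepsin gene Ctss at 1.37, which cuts the invariant chain, Ifi30 at 1.32, Ctsh at 1.08 and H2-DMb2 at 1.05. H2-Oa and H2-Ob, whose product restrains H2-DM, were above 0 in 62.9% and 40.0% of MHC-II-high cells and in 11.4% and 1.33% of other cells. Ciita, which encodes the transactivator, was above 0 in 28.6% of MHC-II-high cells (14.6% to 46.3%) and 0.10% of other cells (0.01% to 0.37%). Of its DNA-binding partners Rfx5, Rfxap, Rfxank, Nfya, Nfyb and Nfyc, Nfyb alone passed the filter on low values, with a difference of -0.11. Nfyc was above 0 in 17.1% of MHC-II-high and 19.9% of other cells, and Rfxap in 14.3% and 16.8%. Nfya was above 0 in 11.4% and 10.4%, Rfx5 in 5.71% and 5.52%, and Rfxank in 2.86% and 8.43%. Intervals in the MHC-II-high cells were wide, such as 6.56% to 33.6% for Nfyc. H2-Oa, H2-Ob, Ciita and these 6 partners were named for their role after their values were seen. Of 10 genes of the class I pathway, 3 were higher by at least 1, namely H2-D1, B2m and H2-K1, with a median over the 10 of 0.67, beside the same 0.339% and -0.010. These levels were not particular to the MHC-II-high cells. H2-K1 was 2.23 ± 1.29 in them, 2.19 ± 1.09 in CD4sp-like, 2.05 ± 1.13 in CD8sp-like and 2.59 ± 0.65 in NCL-like cells, and B2m was 3.99 ± 0.91, 3.72 ± 0.81, 3.82 ± 0.74 and 4.00 ± 0.70.

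Open chromatin at the promoters was measured in other cells, as counts per 4000-base peak, and did not enter the choice of MHC-II-high cells. Total counts per cell had medians of 5792 in total thymocytes, 3377.5 in DN, 3866 in DP, 2571 in CD4 and 3935.5 in CD8 sorted cells, from 1 to 37008 over all. Each gene was read at the peak centered nearest to its start, and peaks lay 45 to 118 bases from it for the 5 genes on chromosome 17 and 176 bases from it for Cd74, on chromosome 18.

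The promoters of Cd74, H2-Aa, H2-Ab1, H2-Eb1 and H2-DMb1 differed in their counts. Cd74 had 30 counts in total thymocytes, 15 in DN, 0 in DP, 15 in CD4 and 0 in CD8 sorted cells. Per 10000 counts that was 0.047 (0.032 to 0.067), 0.135 (0.076 to 0.223), 0 (up to 0.063 by 3 counts), 0.269 (0.150 to 0.443) and 0 (up to 0.061). H2-Aa had 31, 13, 3, 21 and 3 counts in the same order, or 0.048 (0.033 to 0.069), 0.117 (0.062 to 0.201), 0.063 (0.013 to 0.183), 0.376 (0.233 to 0.575) and 0.061 (0.013 to 0.177). For both genes the CD4 sorted cells were highest, with an interval above those of DP and CD8. H2-Ab1 had 125, 24, 5, 16 and 5 counts, H2-Eb1 had 79, 8, 1, 6 and 3, and H2-DMb1 had 23, 9, 2, 0 and 1. Among 13239 promoters in total thymocytes, H2-DMb1, Cd74 and H2-Aa stood at percentiles 19.0, 22.5 and 22.9 by count, H2-Eb1 at 38.7 and H2-Ab1 at 50.2. In CD4 sorted cells Cd74 stood at 67.1, H2-Ab1 at 69.0 and H2-Aa at 78.2, while H2-Eb1 stood at 38.7 and H2-DMb1 at 0.

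H2-DMa was the exception among the 6. At its downstream start it had 525 counts in total thymocytes, 56 in DN, 25 in DP, 36 in CD4 and 16 in CD8 sorted cells. Per 10000 counts that was 0.820 (0.751 to 0.893), 0.505 (0.382 to 0.656), 0.523 (0.338 to 0.772), 0.645 (0.452 to 0.893) and 0.323 (0.185 to 0.525), at percentiles 91.0, 88.3, 87.0, 92.1 and 74.5 of the promoters. The T cell gene Cd3e, read in the same way, had 0.519 (0.464 to 0.577) in total thymocytes, 0.487 (0.366 to 0.635) in DN, 0.565 (0.372 to 0.821) in DP, 0.305 (0.177 to 0.488) in CD4 and 0.505 (0.327 to 0.746) in CD8 sorted cells. In total thymocytes the interval of H2-DMa lay above that of Cd3e. In the sorted groups the intervals overlapped, with Cd3e the lower of the 2 in DN and CD4 and the higher in DP and CD8. The CD8 sorted cells had the lowest H2-DMa signal of the groups, while the CD8sp-like cells had the highest RNA level. A second peak upstream, at the other annotated start of H2-DMa, also holds the start of Brd2 and had 377, 35, 6, 17 and 7 counts.

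The other 5 promoters together had 0.450 (0.399 to 0.505) counts per 10000 in total thymocytes, 0.622 (0.484 to 0.788) in DN, 0.230 (0.115 to 0.412) in DP, 1.04 (0.789 to 1.34) in CD4 and 0.243 (0.125 to 0.424) in CD8 sorted cells. The interval of CD4 lay above those of DP, CD8 and total thymocytes and only just above that of DN, and DN lay above DP and CD8. The promoters of the T lineage list had 6.08 (5.90 to 6.28) in total thymocytes, 2.79 (2.48 to 3.12) in DN, 5.21 (4.58 to 5.89) in DP, 2.28 (1.90 to 2.71) in CD4 and 4.35 (3.78 to 4.97) in CD8 sorted cells, so CD4 and DN were lowest. Their part in the contrast between groups was not tested. When all peaks over a start were summed, CD4 at 1.70 (1.38 to 2.08) and DN at 1.497 (1.28 to 1.74) overlapped. These were 16 peaks for the 5 promoters, and peaks over 1 start overlap each other. A count may thus enter more than once, which would make these 2 intervals too narrow. After each cell was thinned to 2000 counts, leaving out 64, 50, 30, 53 and 41 shallower cells, the share of cells with a count was 8.53%, 10.1%, 4.81%, 18.2% and 5.55% for the 5 promoters. For H2-DMa it was 14.7%, 10.2%, 10.6%, 12.4% and 7.10%. CD4 sorted cells fell into 2 series by the first digit of the number in their label, whose meaning the labels do not give. The 55 cells of the series starting with 3 had 1.70 (1.01 to 2.68) and the 64 of the series starting with 4 had 0.885 (0.632 to 1.20), both above the interval of DP, while the second overlapped that of DN.

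**Figure D5:**
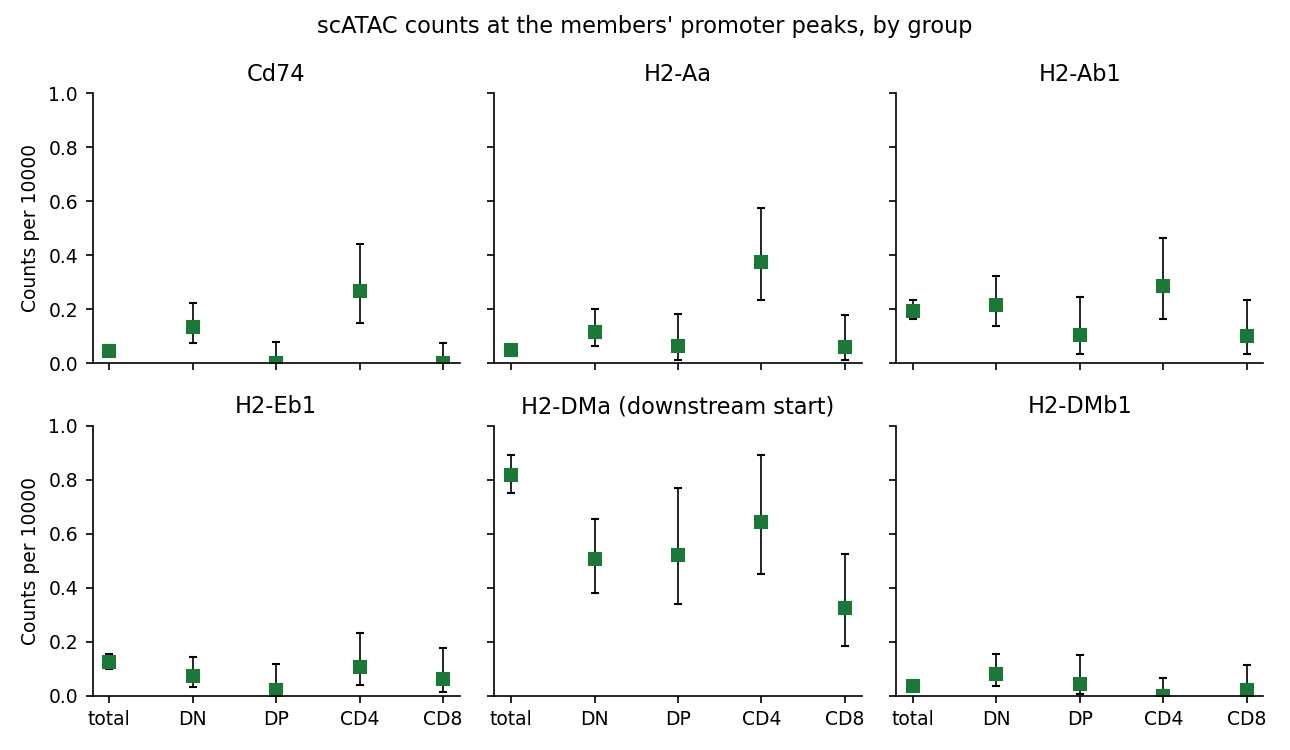
Counts per 10000 counts in peaks at the promoters of the 6 genes, by group of cells, with exact 95% Poisson intervals. H2-DMa reaches 0.820 in total thymocytes, and Cd74 lies at 0 in DP and CD8 and at 0.269 in CD4 sorted cells.

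A few cells held much of this signal. The 3 cells with the most counts at the 5 promoters held 22 of 69 counts in DN and 17 of 58 in CD4 sorted cells, against 21 of 288 in total thymocytes. Counts at 2 or more of the 5 promoters were seen in 27 total thymocytes (2.49%, 1.65% to 3.60%), 10 DN cells (5.49%, 2.67% to 9.87%) and 8 CD4 cells (6.72%, 2.95% to 12.8%). No DP cell had them, which allows up to 2.40% by 3 counts, and no CD8 cell, which allows up to 2.59%. These cells held 25.7% of the counts at the 5 promoters in total thymocytes, 59.4% in DN and 48.3% in CD4. They were deeper than their groups, with medians of 7554, 8097.5 and 10972 counts, and the part of depth in the joint detection was not tested.

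At marker promoters these 45 cells, 27 of them total thymocytes, were set beside the 1581 remaining cells, which mix the groups in other proportions. Per 10000 counts the conventional dendritic list had 1.14 (0.849 to 1.5) against 0.692 (0.638 to 0.750), the macrophage list 0.872 (0.620 to 1.19) against 0.530 (0.483 to 0.581) and the epithelial list 1.25 (0.946 to 1.63) against 0.607 (0.556 to 0.662). Within groups the contrast was not even. The epithelial list had 2.71 (1.74 to 4.03) in the 10 DN cells against 0.631 (0.492 to 0.798) in all DN cells, but 0.828 (0.506 to 1.28) against 0.631 (0.571 to 0.696) in total thymocytes. The conventional dendritic list had 2.03 (1.20 to 3.21) against 1.06 (0.873 to 1.26) in DN and 0.685 (0.296 to 1.35) against 0.609 (0.422 to 0.851) in CD4. In total thymocytes it had 1.03 (0.670 to 1.53) against 0.620 (0.561 to 0.684), and its intervals overlapped in each of these groups. It stood at 1.31 (1.01 to 1.67) in all CD8 sorted cells, none of which is among the 45, so it was not particular to these cells. The macrophage list had overlapping intervals in each group, with 0.952 (0.603 to 1.43) against 0.608 (0.549 to 0.671) in total thymocytes. It had 0.564 (0.183 to 1.32) against 0.343 (0.243 to 0.470) in DN and 0.942 (0.470 to 1.69) against 0.448 (0.290 to 0.661) in CD4. Over all groups, the B cell list had 0.447 (0.273 to 0.691) against 0.344 (0.306 to 0.386), with overlapping intervals. The intervals also overlapped for the plasmacytoid list, with 1.01 (0.734 to 1.35) against 0.754 (0.697 to 0.814), and for the myeloid list, with 0.291 (0.155 to 0.497) against 0.135 (0.112 to 0.162). The T lineage list had 4.12 (3.54 to 4.76) against 5.37 (5.21 to 5.52), with the reverse in DN, at 4.74 (3.42 to 6.41) against 2.79 (2.48 to 3.12), and overlapping intervals in CD4, at 2.05 (1.32 to 3.06) against 2.28 (1.90 to 2.71). The erythroid list rested on 7 counts in these cells, all in CD4 sorted cells.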

How the data were processed

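For the single-cell RNA library, the authors aligned and counted reads with Cell Ranger 1.3.1 (submitters' processing notes) and GRCm38.p5, quantile-normalized the values in R and deposited log2 values with zeros kept at 0. The methods name a filter on cells by detected genes, but the deposited table of 1993 cells still holds 7 with more than 4500 detected genes, without which 1986 remain. For scATAC-seq, the authors cut off adapters and used Bowtie2 for alignment, Picard for duplicate removal and MACS2 for peaks of all cells merged, and they deposited unnormalized counts for each cell in each peak. The notes also name hg38, and the build of the peaks is not stated. It was taken as GRCm38 because 23.0% of 138317 peaks lay within 2000 bases of an annotated gene start, against 6.42% and 6.27% after shifts of 100000 bases. Of 1988 scATAC columns, 362 were not used, 352 of total thymocytes with labels of another form and 10 of samples with no group.

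Log2 values are not counts, so no count test was run. Groups, differences of mean log2 values, SDs over cells, exact binomial (Clopper-Pearson) and Poisson intervals and correlations were computed in Python 3.11.15 (numpy 2.4.6, pandas 2.3.3, scipy 1.17.1). Steps were the ranks of distinct values in a cell, thinned to 1300 with a fixed seed. Differences were called at 1, for genes with values above 0 in no fewer than 20% of the cells of one group. Clusters were built with Seurat 5.3.0 in R 4.3.3 from variable genes (mean 0.025 to 3, dispersion at least 0.5), with 20 components, 30 neighbors and resolution 2, without the members and the class II list. Clusters were named by their best-scoring marker list, except that those with Mki67 in at least 50% of cells could only be ISP-like or DPbla-like, and rebuilt names may differ from those of the study. Doublets were not called. Named genes were the 6 members, the 20 most correlated genes, the 10 highest and 10 lowest differences and up to 4 genes of each list. Regulators and H2-O genes of the class II list, comparison genes from other cells and single cells were named in addition after their values were seen. The members, lists and rules were chosen with earlier results of these data known. Alternatives were other thresholds, thinning, clustering settings, leaving out a member, and wider peak sets. The scripts were tested on simulated data.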

Additional observations from a re-analysis of the deposited data

How the results depend on the processing

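The share of MHC-II-high cells was 1.76% and moved to 4.16% with a mean of at least 0.5 and to 3.86% with at least 4 of the 6 genes above 0, and it stayed within its interval under 5 other definitions. With the threshold at 0.5 the difference of the mean value was 1.65. The share of other cells with Cd74 was 6.23% above a value of 1 and 12.1% after thinning, with H2-Aa 3.58% and 7.81%, with H2-Ab1 5.82% and 10.3%, with H2-Eb1 3.22% and 7.61%, with H2-DMa 3.22% and 7.35%, and with H2-DMb1 0.153% and 0.460%. Thinning lowers depth by construction. Mean values by class moved by less than their SD, except for H2-DMb1 in CD4sp-like cells, which went from 0 to 0.0043 at resolution 1, where no cluster took the CD8sp-like class. Of the 20 genes most like the members, 8 were shared with Spearman correlation and 7 over other cells only. A least difference of 0.5 gave 98 higher and 92 lower genes. Summing all peaks over the start gave 0.936 counts per 10000 at the 5 promoters in total thymocytes, 1.497 in DN, 0.418 in DP, 1.70 in CD4 and 0.485 in CD8 sorted cells, and 1.03 at H2-DMa in total thymocytes, since more peaks were summed. The summed peaks overlap each other, so a count may enter more than once. No paired analysis was possible because no result comes from a test and each group is 1 sample. Leaving out a DPbla-like cluster of 74 cells that scored higher for DPre, an alternative chosen after seeing the data, moved no mean of a member by more than its SD, but the lowest class of H2-DMa then changed from ISP-like at 0.40 to DPbla-like at 0.31 per 10000 steps. The 352 total thymocytes with labels of another form were not analysed here, so the comparison with them was not run. With 35 cells, 1 library and few counts at each promoter, small differences between classes or sorted groups were not detectable at this depth.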
